A study of Mus musculus with 4 samples.

Results

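The transcripts described here are 9 RNAs encoded by the mouse mitochondrial genome: the mRNAs *mt-Nd1*, *mt-Nd2*, *mt-Nd4*, *mt-Nd5*, *mt-Nd6*, *mt-Cytb* and *mt-Co1*, and the rRNAs *mt-Rnr1* and *mt-Rnr2*. They were taken by name because they are the well-measured genes of that genome, and all 9 had a value in the table of 20197 genes. The choice rests on their level and not on a difference between groups. The samples were wild-type 4T1 cells, a tumor line from mouse mammary gland that stands in for triple negative breast cancer, grown in DMEM with serum. The stain was MitoSpy Red CMXRos at 20 nM, a dye drawn into mitochondria by their membrane potential (MMP), and the 5% with the most and the 5% with the least stain were sorted. There were 2 high MMP and 2 low MMP samples of 100000 cells each, and 200 ng of RNA went into a stranded library preparation that selects RNA with a poly(A) tail. All 4 samples were stained and sorted and come from 1 cell line, so the comparison is between the tails of a stain distribution in cultured cells, with no unsorted sample beside them.

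The mitochondrial genome is a small circle transcribed from both strands into long precursors, which are cut at tRNA sequences into rRNAs, mRNAs and tRNAs. Transcription from the heavy-strand promoter yields both rRNAs and nearly all mRNAs, while *mt-Nd6* is the single mRNA made from the light-strand promoter. The mRNAs encode core subunits of the respiratory chain and of ATP synthase, the machinery that builds and uses the membrane potential by which these cells were sorted, and the rRNAs form the ribosome that translates them.

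Values are normalized reads, that is, the reads of a gene after each library was scaled to 20000000 reads assigned to genes. Depth was 22591970 to 26395015 reads per library, and the mitochondrial genome took 1.35% to 2.37% of them. The members held 99.9% of the mitochondrial reads in each library. Of 8 markers of mammary epithelial tumor cells, 7 had a value (*Krt5* had none in the table used here), and their means over the libraries ran from 930 (*Cldn7*) to 16783 (*Krt8*). The largest differences of high minus low MMP among them were -0.34 in *Cdh1*, 0.32 in *Krt14* and 0.18 in *Cldn7* (log2), with 0 passing the test in limma (adjusted p 0.47 or above). Of 15 markers of leukocytes, endothelium, fibroblasts and erythroid cells, 7 had a value, and they summed to 401, 517, 699 and 703 in high MMP 1, high MMP 2, low MMP 1 and low MMP 2. The leukocyte marker *Ptprc* was at 0 to 1.77, *Cd3e*, *Lyz2* and *Hbb-bs* had no value, and most of the sum came from *Pdgfra* (319, 363, 536 and 589) and *Cd68* (59.9 to 149). *Pdgfra* was called lower in high MMP cells by DESeq2 (adjusted p 0.040) and not by limma (adjusted p 0.47), and its part in the results below was not tested. The other fibroblast markers were near the floor. *Pdgfrb* had 6.06 to 10.5 normalized reads, *Dcn* had 1.74 to 9.09 with a difference of the other sign (0.67), and *Lum* had no value. In bulk samples such as these, fewer cells of a kind and less RNA per cell cannot be told apart.

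The strand of origin can be read in the sequences. The first 60 bases of *mt-Co1* (chrM:5328-5387, plus strand) and of *mt-Nd6* (chrM:14011-14070, minus strand), with G in capitals, are shown because the rest of the comparison rests on which strand a member comes from. All sequences are from the GENCODE M21 transcripts of build GRCm38, 5′ to 3′.
mt-Co1: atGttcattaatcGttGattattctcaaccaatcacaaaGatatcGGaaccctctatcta
mt-Nd6: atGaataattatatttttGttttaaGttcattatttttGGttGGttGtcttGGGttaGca
The *mt-Co1* stretch held 6 G and 14 C, and the *mt-Nd6* stretch 12 G and 3 C. Over whole transcripts, *mt-Nd6* was 28.1% G and 5.97% C, whereas the 6 heavy-strand mRNAs were 8.0% to 16.1% G and 23.8% to 27.7% C. The rRNAs lay nearer to balance, with 16.1% and 16.2% G and 19.7% and 19.2% C.

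*mt-Nd5* and *mt-Nd6* face each other and share their last 14 bases, in capitals below, at chrM:13552-13565. They are printed because reads over them can come from either strand.
mt-Nd5 (chrM:13536-13565, plus strand): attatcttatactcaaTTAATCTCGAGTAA
mt-Nd6 (chrM:13552-13581, minus strand): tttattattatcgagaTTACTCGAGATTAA
Whether reads were counted by strand is not given in the sources used here. Reads of *mt-Nd6* and of RNA from the opposite strand over the same bases therefore cannot be told apart.

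The ends of 3 mRNAs are shown for their stop codons, with the bases of the last, complete or incomplete, codon in capitals.
mt-Co1 (chrM:6852-6872): acctatgtaaaagtaaaaTAA
mt-Nd4 (chrM:11524-11544): taattacaggcctgacaataT
mt-Cytb (chrM:15268-15288): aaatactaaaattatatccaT
*mt-Co1* carries a whole stop codon, whereas the annotated *mt-Nd4* and *mt-Cytb* end in a lone T. As background, such stop codons are completed by the poly(A) tail added to these mRNAs, the kind of tail by which the libraries were selected.

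To learn how the level of mitochondrial transcripts stood in cells of high and low MMP, each member was compared between the groups. The members did not differ between the groups beyond the spread of their replicates. All 9 were lower on average in high MMP cells, by 0.11 to 0.43 on the log2 scale, against 58.6% of all genes with a negative difference. All 9 were also lowest in the same library, high MMP 1, where 32.0% of all genes were lowest, and that library stood at 58.2% to 89.6% of the next lowest one. No member passed the test across all genes (limma, adjusted p 0.69 to 0.95), as no gene in the table did (0.0% called). At an unadjusted p under 0.05, the count was 0 of 9 members, against 9.96% of all genes. The high and low MMP values overlapped for all 9 members, whereas 37.9% of all genes had groups that did not overlap. edgeR called 0 members, and so did DESeq2, which called 0.584% of all genes.

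**Figure D1:**
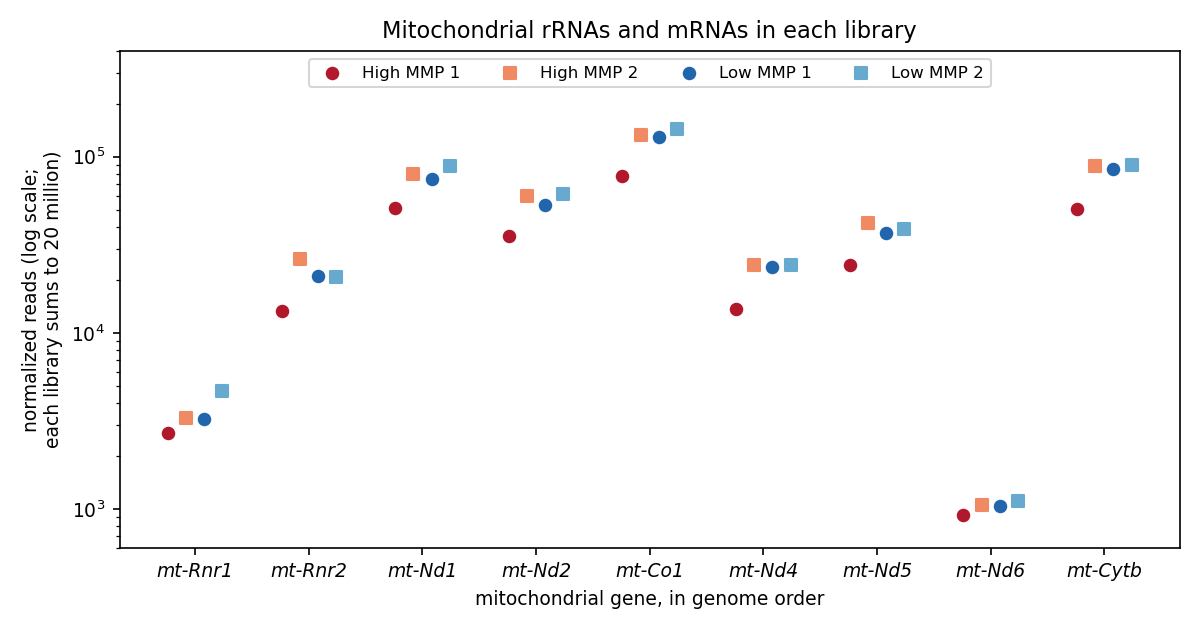
Normalized reads (log axis) of the 9 mitochondrial transcripts in genome order, with 1 point for each of the 4 libraries. High MMP 1 (dark red circles) is the lowest point of every gene, and high MMP 2 lies among or above the low MMP libraries for most.

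*mt-Co1*, the catalytic subunit of cytochrome c oxidase, was the most abundant member, with 77366 normalized reads in high MMP 1, 132707 in high MMP 2, 130053 in low MMP 1 and 142989 in low MMP 2. High MMP 2 lay between the low MMP libraries, and high MMP 1 was far below the rest. The difference of high minus low MMP was -0.43 (log2, SE 0.34, n = 2 per group, limma adjusted p 0.79). *mt-Cytb*, the core subunit of complex III, had 50249.6, 88586, 85562 and 89849 normalized reads in the same order of libraries. It repeated the pattern, with high MMP 2 between the low MMP values and a difference of -0.39 (SE 0.33, adjusted p 0.80).

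The complex I subunits encoded on the heavy strand were lowest in high MMP 1 as well, and differed in where high MMP 2 stood. *mt-Nd1* had 51266 normalized reads in high MMP 1, 79872 in high MMP 2, 74462 in low MMP 1 and 88932 in low MMP 2. For *mt-Nd2*, the values were 35335, 60205, 52885 and 61555. Both had high MMP 2 between the low MMP libraries, with differences of -0.35 (SE 0.29) for *mt-Nd1* and -0.31 (SE 0.31) for *mt-Nd2*. *mt-Nd4* stood at 13679, 24378, 23492 and 24318, and *mt-Nd5* at 24131, 41917, 37066 and 38648. In these subunits high MMP 2 was the highest of the 4 libraries and high MMP 1 the lowest. Their differences were -0.39 (SE 0.31) for *mt-Nd4* and -0.25 (SE 0.31) for *mt-Nd5*, and the adjusted p of these complex I genes ran from 0.79 to 0.87 in limma.

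*mt-Nd6*, the complex I subunit of the opposite strand, moved least. It had 924 normalized reads in high MMP 1, 1054 in high MMP 2, 1032 in low MMP 1 and 1104 in low MMP 2, which were 1220, 1259, 1184 and 1247 reads before scaling. Its share of reads in high MMP 1, 0.00462%, had a 95% Wilson interval of 0.00437% to 0.00489%, which met that of low MMP 1 (0.00488% to 0.00546%) at its edge and ended below that of high MMP 2 (0.00498% to 0.00557%). The difference between groups was -0.11 (log2, SE 0.10, limma adjusted p 0.82). Intervals cover counting error only, since amplified reads without molecular identifiers are not independent molecules.

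The rRNAs did not share 1 order of libraries above high MMP 1. *mt-Rnr1*, the RNA of the small ribosomal subunit, had 2685 normalized reads in high MMP 1, 3275 in high MMP 2, 3248 in low MMP 1 and 4697 in low MMP 2. Low MMP 2 was the library that stood apart here, and the difference was -0.40 (SE 0.22, limma adjusted p 0.69). *mt-Rnr2*, the RNA of the large subunit, had 13375, 26354, 21067 and 20867. Its low MMP values were almost equal and lay between the high MMP ones, with a difference of -0.16 (SE 0.35, limma adjusted p 0.95).

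**Figure D2:**
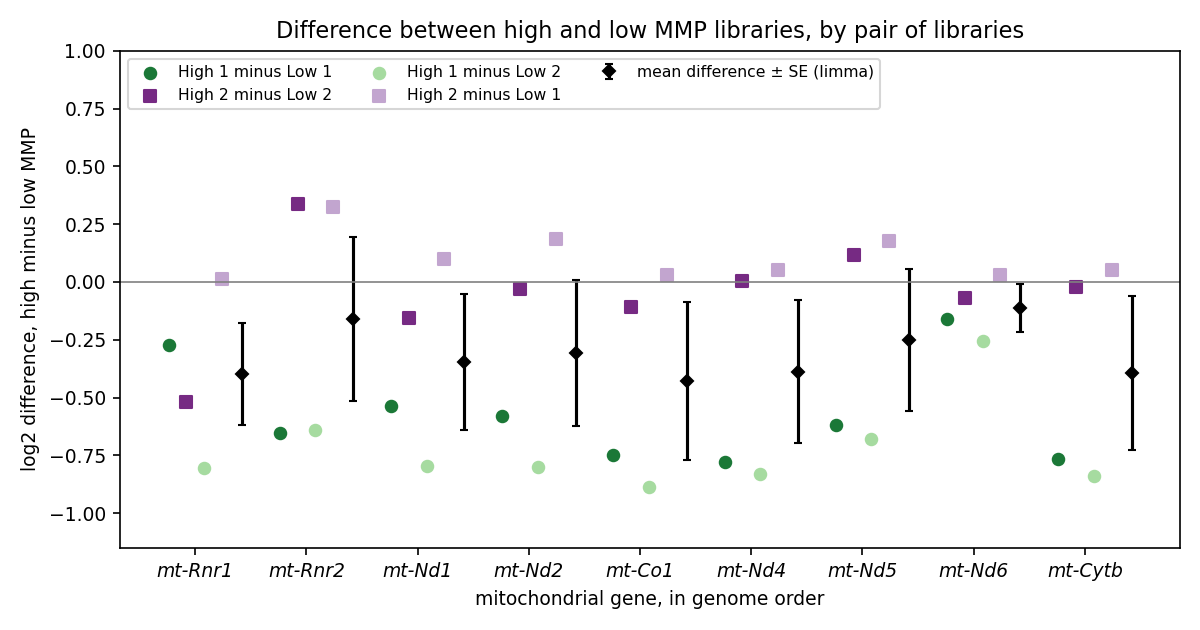
Log2 difference of high minus low MMP for each member in the 4 possible pairs of a high and a low library (colored points), with the mean difference ± SE from limma (black diamonds). The pairs that use high MMP 1 are all below 0, whereas those with high MMP 2 scatter about 0, from -0.52 for *mt-Rnr1* to 0.34 for *mt-Rnr2*. In high MMP 2 minus low MMP 1, all 9 members lie above 0.

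The sign of the differences rested on high MMP 1 for *mt-Nd2*, *mt-Nd4*, *mt-Nd5*, *mt-Cytb* and *mt-Rnr2*, which turned positive without it, and not for the other members. In libraries numbered 1, all 9 members were lower in high MMP cells, with a median of -0.62. In those numbered 2, 6 of 9 were lower, with a median of -0.03. Of 12902 genes that averaged at least 10 normalized reads, 7127 and 7124 were lower in these pairs. The numbers were not taken to pair the samples. Set crosswise, 9 of 9 members were lower in high MMP 1 than in low MMP 2. In high MMP 2 against low MMP 1, 0 of 9 were lower. With high MMP 1 left out, 4 members had a negative and 5 a positive difference (-0.25 to 0.33), and with high MMP 2 left out all ran from -0.82 to -0.21. The adjusted p stayed at 0.37 or above without high MMP 1 and at 0.26 or above without high MMP 2 (limma, where the lone sample is assumed to vary like the others).

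The gap between the high MMP libraries was set beside that of other abundant genes. The 6 heavy-strand mRNAs were 0.64 to 0.83 higher (log2) in high MMP 2 than in high MMP 1, with a median of 0.79. Among 4741 nuclear genes that averaged at least 1000 normalized reads, the same difference had a median of 0.02 and an SD of 0.29 over single genes. Between the low MMP libraries, the heavy-strand mRNAs differed by 0.05 to 0.26. The rise from high MMP 1 to high MMP 2 was 0.98 for *mt-Rnr2*, 0.29 for *mt-Rnr1* and 0.19 for *mt-Nd6*. Between these replicates of 1 group, *mt-Nd6* and *mt-Rnr1* thus differed by less than each heavy-strand mRNA did. The heavy-strand mRNAs come from 1 precursor and are not independent of each other.

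**Figure D3:**
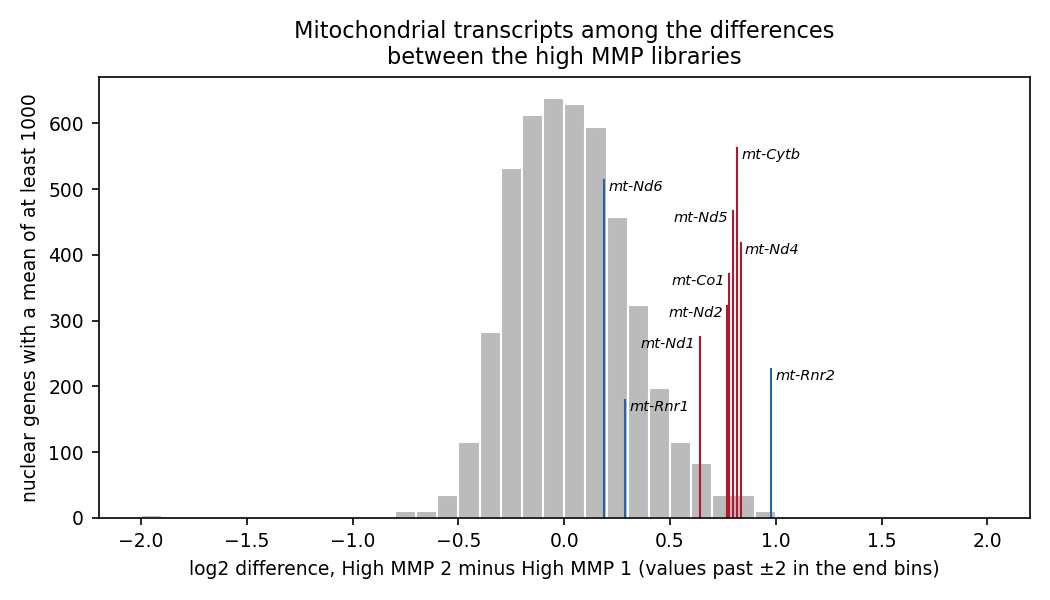
Number of nuclear genes with a mean of at least 1000 normalized reads (grey bars, in bins of 0.1) by their log2 difference between high MMP 2 and high MMP 1, with a vertical line at the value of each member. Line heights only separate the labels. The heavy-strand mRNAs (red) lie at 0.64 to 0.83 in the right tail, *mt-Rnr2* at 0.98, and *mt-Nd6* (0.19) and *mt-Rnr1* (0.29) within the bulk of genes.

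As a share of all reads assigned to genes, the member mRNAs took 1.26% in high MMP 1 (95% Wilson interval 1.26% to 1.27%), 2.14% in high MMP 2 (2.14% to 2.15%), 2.02% in low MMP 1 (2.02% to 2.03%), and low MMP 2 had the largest share with 2.24% (2.23% to 2.24%). The high MMP mean of 1.70% ± 0.62 and the low MMP mean of 2.13% ± 0.15 (SD, n = 2 each) differed by -0.43 percentage points (exact permutation test, two-sided, p = 0.667). With 2 against 2 samples this test cannot go below 0.333. Without high MMP 1 the difference was 0.01 percentage points in the other direction. The rRNAs took 0.0803% (0.0792% to 0.0814%), 0.148% (0.147% to 0.150%), 0.122% (0.120% to 0.123%) and 0.128% (0.126% to 0.129%) in the same order. The lowest and the highest rRNA share were both in high MMP cells, and the group means of 0.114% ± 0.048 and 0.125% ± 0.0044 (SD) lay closer together than these replicates (exact permutation test, p = 1). Without high MMP 1, the difference turned from -0.01 to 0.02 percentage points. Counting error was far below the differences between replicates in both shares.

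Ratios within a library do not depend on how its total was scaled. *mt-Nd6* amounted to 0.367% of the heavy-strand mRNA reads in high MMP 1, 0.246% in high MMP 2, 0.256% in low MMP 1 and 0.247% in low MMP 2. High MMP 1 was thus above the other libraries, which lay within 0.01 percentage points of each other. On the log2 scale the light-to-heavy ratio averaged -8.38 ± 0.41 in the high MMP group and -8.64 ± 0.034 in the low MMP group (SD over 2 libraries), a difference of 0.26 (exact permutation test, p = 1). Without high MMP 1 it was -0.030. The ratio is that of reads after poly(A) selection, and whether *mt-Nd6* was captured like the heavy-strand mRNAs was not tested.

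The rRNAs amounted to 6.35% and 6.91% of the mRNA reads in high MMP 1 and 2, while in low MMP 1 and 2 they amounted to 6.01% and 5.71%. Both high MMP libraries were above both low MMP libraries. The log2 ratio averaged -3.92 ± 0.087 in the high MMP group and -4.09 ± 0.052 in the low MMP group (SD over 2 libraries), a difference of 0.18 (exact permutation test, p = 0.333, the smallest that 2 against 2 samples allow, and 37.9% of all genes had groups that did not overlap). Taken as the mean of the log2 values of single genes in place of summed reads, the difference was 0.040 (exact permutation test, p = 0.667). *mt-Rnr2* makes up most of the rRNA sum. It had 4.98 and 8.05 reads per read of *mt-Rnr1* in high MMP 1 and 2, and 6.49 and 4.44 in low MMP 1 and 2, so that the groups overlapped. Mitochondrial rRNAs carry only short tails, as background, and poly(A) selection passes a part of them. Of 14 histone and other RNAs listed for lacking a poly(A) tail, 5 had a value, and they summed to 233 in high MMP 1, 58.6 in high MMP 2, 281 in low MMP 1 and 386 in low MMP 2. Their order was the reverse of that of the rRNA-to-mRNA ratio, and their part in that ratio was not tested.

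**Figure D4:**
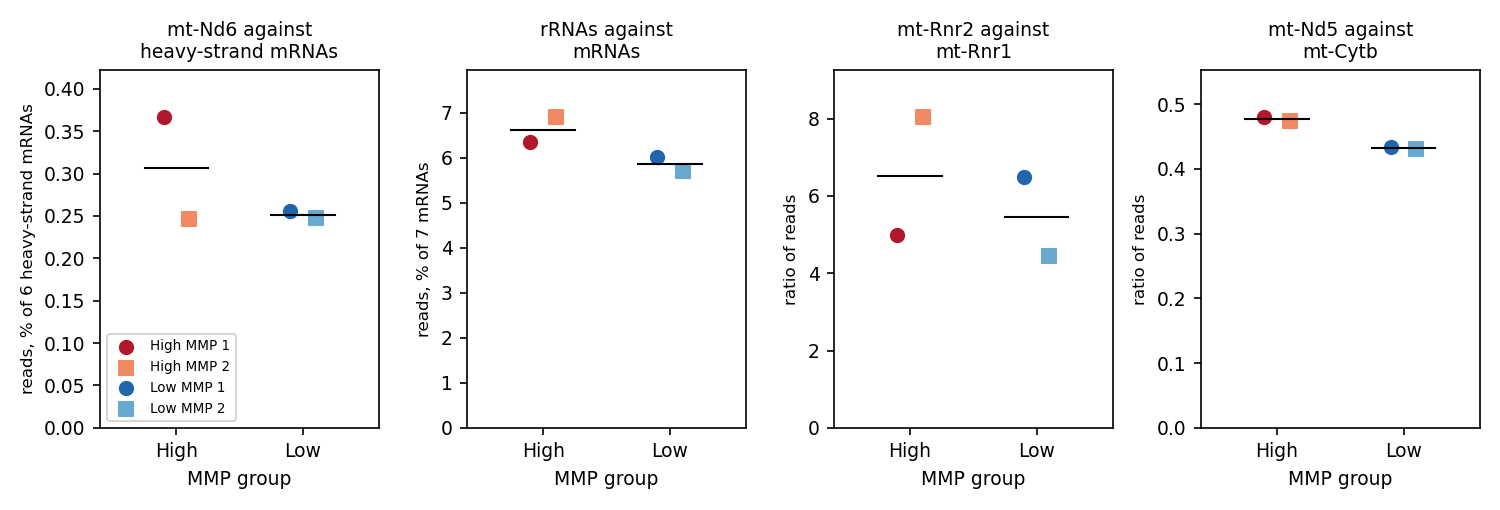
Ratios within each library: *mt-Nd6* as a percent of the 6 heavy-strand mRNAs, both rRNAs as a percent of the 7 mRNAs, *mt-Rnr2* per *mt-Rnr1*, and *mt-Nd5* per *mt-Cytb* (points are libraries, black lines group means, axes start at 0). High MMP 1 stands alone at 0.367% in the first panel, and the high MMP libraries lie above the low MMP ones in the second (6.35% and 6.91% against 6.01% and 5.71%) and the last (0.480 and 0.473 against 0.433 and 0.430).

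Within the member mRNA reads, the share of each heavy-strand mRNA differed by 1.05-fold to 1.13-fold between its lowest and highest library, and that of *mt-Nd6* by 1.49-fold. *mt-Co1* took 30.6% and 31.0% of the member mRNA reads in high MMP 1 and 2, and 32.1% and 32.0% in low MMP 1 and 2. *mt-Nd5* took 9.54% and 9.78% in high MMP cells, and 9.16% and 8.64% in low MMP cells. *mt-Nd2* took 13.97% and 14.04% in high MMP cells, and 13.07% and 13.76% in low MMP cells. These 3 shares did not overlap between the groups, with p = 0.333 in the exact permutation test, whereas those of *mt-Nd1*, *mt-Nd4*, *mt-Cytb* and *mt-Nd6* did overlap. Of the 36 pairs of members, the ratio of 9 (25%) did not overlap between the groups, against 37.9% of all genes. The pair whose groups were farthest apart for their spread was *mt-Nd5* and *mt-Cytb*, chosen after its values were seen: 0.480 and 0.473 reads of *mt-Nd5* per read of *mt-Cytb* in high MMP 1 and 2, and 0.433 and 0.430 in low MMP 1 and 2. The ratio differed by less than 0.01 within each group, and the group difference was 0.05 (exact permutation test, p = 0.333, the smallest possible).

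Per kilobase of transcript, the mRNA levels spanned a wide range. *mt-Co1* (78174 normalized reads per kb, mean of 4 libraries) and *mt-Nd1* (76942) led, and these neighbors did not differ beyond their spread: *mt-Co1* was 0.01 ± 0.09 higher (log2, SD over 4 libraries) and above in 2 of 4 libraries. *mt-Cytb* (68673) was below *mt-Nd1* in 4 of 4 libraries, by 0.17 ± 0.11. *mt-Nd2* (50573), *mt-Nd5* (19430), *mt-Nd4* (15578) and *mt-Nd6* (1982) followed, each below its predecessor in all 4 libraries, and the widest step was the 2.94 ± 0.31 between *mt-Nd4* and *mt-Nd6*. Whether poly(A) selection captured *mt-Nd6* as well as the other mRNAs was not tested, so this step need not be that of their levels in the cell. These levels used whole transcript lengths. Of the read-length windows looked up below, 39.8% of *mt-Co1* and 61.5% of *mt-Nd4* also occur in annotated nuclear transcripts. *mt-Nd1* shared none and *mt-Nd5* 1.66%. If reads from shared windows were left out, *mt-Co1* and *mt-Nd4* would be understated. Their order beside *mt-Nd1* and *mt-Nd5* could then differ, which was not tested. The rRNAs had 12905 (*mt-Rnr2*) and 3640 (*mt-Rnr1*) normalized reads per kb, which after poly(A) selection is not their level in the cell.

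The other mitochondrial mRNAs had very few reads. *mt-Co2*, a further subunit of cytochrome c oxidase, had 65.6 normalized reads per kb, and *mt-Atp6* and *mt-Atp8*, subunits of ATP synthase, had 37.7 and 14.4. *mt-Co3* had 24.9, *mt-Nd3* 13.1 and *mt-Nd4l* 4.98, with 1 to 65 reads per gene and library. Since the mRNAs are cut from shared precursors, their sequences were searched for stretches that reads could not assign to 1 gene. Each transcript was cut into all windows of 75 bases, the length of 1 read, and each window was looked up in all other annotated transcripts of the same release.

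Windows that also occur in a transcript of the nuclear genome made up 99.5% of *mt-Co2*, 99.5% of *mt-Atp6*, 99.9% of *mt-Co3*, 97.8% of *mt-Nd3* and 98.7% of *mt-Nd4l*. *mt-Atp8* was the exception among the low genes, with 0 of 130 windows shared with annotated transcripts. It lies between *mt-Co2* and *mt-Atp6*, whose copies described below are both on the minus strand of chromosome 1. The *mt-Atp6* copy ends at position 24614651 and the *mt-Co2* copy begins at 24614885, with a gap between them. Sequence outside annotated transcripts was not searched, so whether *mt-Atp8* has a copy there is not known. Among the members, *mt-Nd1*, *mt-Cytb*, *mt-Nd6*, *mt-Rnr1* and *mt-Rnr2* shared none, *mt-Nd5* 1.66% and *mt-Nd2* 5.71%. *mt-Nd4* and *mt-Co1* were in between, with 61.5% and 39.8%, so their values are uncertain where the counting left out reads with several matches. The handling of such reads is not given in the sources used here, and their part in the levels was not tested.

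**Figure D5:**
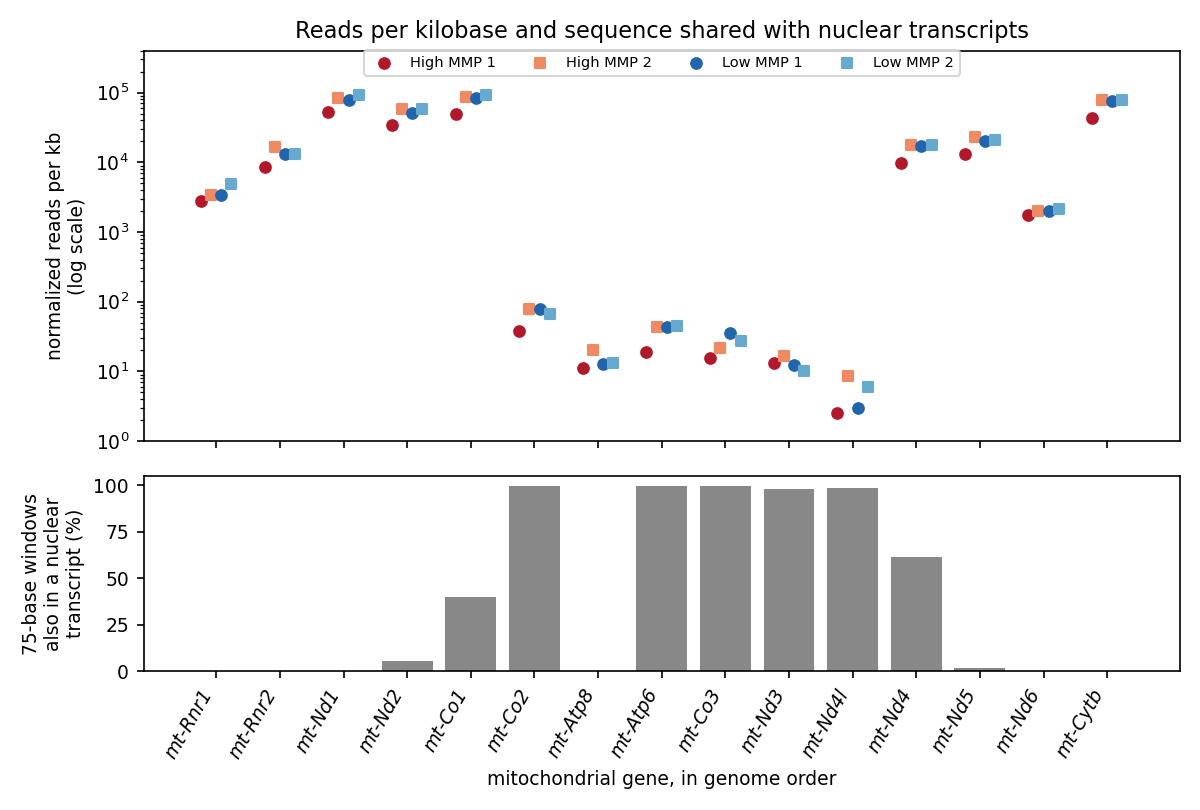
Normalized reads per kilobase (log axis, upper panel, 1 point per library) and the percent of 75-base windows that also occur in an annotated nuclear transcript (lower panel) for the 13 mRNAs and 2 rRNAs in genome order. The genes with 97.8% to 99.9% of windows shared have 4.98 to 65.6 normalized reads per kb on average, and the member mRNAs average 1982 or more. *mt-Atp8* is low with 0% shared with annotated transcripts, and other nuclear sequence was not searched.

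The shared windows of these low genes come from a run of pseudogenes on chromosome 1, copies of mitochondrial DNA in the nuclear genome. The copies *Gm28661* of *mt-Co2*, *Gm10925* of *mt-Atp6*, *Gm28437* of *mt-Co3*, *Gm28438* of *mt-Nd3*, *Gm10222* of *mt-Nd4l* and *Gm28439* of *mt-Nd4* were identical to the mitochondrial gene over their aligned length (294 to 876 bases). *Gm29216* matched the last 483 bases of *mt-Co1* with 1 difference, A1066T (the mitochondrial base first, counted from 1 at the first base of *mt-Co1*). Stretches of 60 bases of 3 such pairs are shown for how little a read can tell apart, with differences between the sequences of a pair in capitals.
mt-Co1 (chrM:6390-6449, plus strand): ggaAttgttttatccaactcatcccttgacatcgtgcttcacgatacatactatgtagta
Gm29216 (chr1:24616129-24616188, minus strand): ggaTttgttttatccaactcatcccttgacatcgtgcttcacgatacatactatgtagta
mt-Nd4 (chrM:10167-10226, plus strand): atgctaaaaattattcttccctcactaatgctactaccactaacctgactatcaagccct
Gm28439 (chr1:24612351-24612410, minus strand): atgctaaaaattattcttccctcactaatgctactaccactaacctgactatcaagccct
mt-Co2 (chrM:7013-7072, plus strand): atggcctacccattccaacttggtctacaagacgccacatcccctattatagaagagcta
Gm28661 (chr1:24615506-24615565, minus strand): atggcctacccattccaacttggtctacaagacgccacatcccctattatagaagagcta
Only the *mt-Co1* pair differed in these stretches, and the pairs of *mt-Nd4* and *mt-Co2* were the same in all 60 bases.

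The copies held few reads. On chromosome 2, *Gm13340*, 97.6% identical to *mt-Co1*, had 39.4 normalized reads in high MMP 1, 80.3 in high MMP 2, 71.5 in low MMP 1 and 91.2 in low MMP 2. Copies of *mt-Co2*, *mt-Nd2* and *mt-Nd5* on chromosomes 2, 4 and 13 had fewer. The 7 nuclear copies on chromosome 1 summed to 202 normalized reads in high MMP 1, 313 in high MMP 2, 293 in low MMP 1 and 361 in low MMP 2. High MMP 1 was lowest here too, as for the members. *Gm28438* (15.2, 57.7, 47.1 and 46.0), *Gm28439* (19.7, 22.6, 20.9 and 41.6) and *Gm28661* (42.4, 45.2, 60.2 and 61.1) had the largest differences among them, and none of the 7 passed the test in limma. Of the 6 low mRNAs, 0 passed either, and 3 (50%) had groups that did not overlap, against 37.9% of all genes. These were *mt-Atp6* and *mt-Co3*, lower in high MMP cells, and *mt-Nd3*, which was higher (0.32) on 4 to 7 reads per library. *mt-Co2* had 25.8, 54.4, 54.0 and 45.1 normalized reads, *mt-Atp6* 12.9, 29.3, 29.6 and 31.0, and *mt-Co3* 12.1, 16.7, 27.9 and 21.2, again with high MMP 1 the lowest.

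Of the 22 mitochondrial tRNAs, 9 had a value. They summed to 188 normalized reads in high MMP 1, 377 in high MMP 2, 221 in low MMP 1 and 204 in low MMP 2. The most abundant, *mt-Tw*, which carries tryptophan and follows *mt-Nd2* in the heavy-strand precursor, had 71.2, 176, 95 and 77.9. *mt-Tp*, which carries proline and lies on the opposite strand, had 60.6, 56.9, 53.2 and 57.5. *mt-Tw* was thus highest in high MMP 2, while *mt-Tp* stayed within 10 normalized reads. These short RNAs are poorly captured by such libraries, and none passed the test in limma.

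The nuclear genes that copy, transcribe and process mitochondrial DNA and RNA stayed closer to the average of all genes than the members did. Of 45 listed genes, 44 had a value, 0 passed the test in limma, and their median difference was -0.02, against -0.35 for the members and -0.03 over all genes that averaged at least 10 normalized reads. Their groups did not overlap for 15 (34.1%), near the share of all genes. *Polrmt*, the mitochondrial RNA polymerase, had 608 normalized reads in high MMP 1, 803 in high MMP 2, 785 in low MMP 1 and 785 in low MMP 2, and was thus also lowest in high MMP 1. *Tfam*, which packages the genome and starts transcription, had 1743, 1740, 1788 and 1724, a spread far below that of the mRNAs.

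*Tfb2m*, a transcription initiation factor, stood at 539, 576, 580 and 507 normalized reads. *Lrpprc* (3661, 3931, 3776 and 3412) and *Slirp* (951, 733, 782 and 857) encode partners that stabilize mitochondrial mRNAs, and neither followed the members. The largest differences on the list were in *Mterf1a* (-0.58), a termination factor, *Trmt61b* (-0.41), an RNA methyltransferase, and *Polg2* (-0.40), the accessory subunit of the mitochondrial DNA polymerase. *Mettl15* (0.36) and *Mrm1* (-0.35), rRNA methyltransferases, *Polg* (-0.26), the catalytic subunit of that polymerase, *Mterf2* (0.24) and the elongation factor *Tefm* (0.24) came next. All had a limma adjusted p of 0.47 or above.

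Nuclear genes for subunits of respiratory complexes I, III and IV, the partners of the proteins encoded by the member mRNAs, went another way in the libraries numbered 1. Of 55 such genes, 8 were lower in high MMP 1 than in low MMP 1, with a median of 0.18, where the members had -0.62. In the libraries numbered 2, 53 of 55 were lower in high MMP cells, with a median of -0.18, where the members had -0.03. Of 12902 genes that averaged at least 10 normalized reads, 7127 and 7124 were lower in these pairs. The numbers were not taken to pair the samples, and these 55 genes were not counted in crosswise pairs. Summed, the 55 genes had 99248 normalized reads in high MMP 1, 85358 in high MMP 2, 89392 in low MMP 1 and 95099 in low MMP 2. High MMP 1, the lowest library for the members, was their highest. The higher sums were thus in high MMP 1 and low MMP 2, and the lower ones in high MMP 2 and low MMP 1. Over both pairs the median was 0.01, 0 passed the test in limma, and 18.2% had groups that did not overlap, against 37.9% of all genes. The largest differences were in *Ndufb2* (-0.60) and *Ndufa1* (0.21), both of complex I, and *Cox6a1* (-0.18) of cytochrome c oxidase.

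Immediate-early and stress genes also differed between replicates. The 18 listed genes summed to 157246 normalized reads in high MMP 1, 123200 in high MMP 2, 115667 in low MMP 1 and 140583 in low MMP 2. High MMP 1 was highest here, and low MMP 2, where 6 of 9 members were highest, came second. *Hspa8* and *Hsp90aa1* held the largest values in the sum (47172 and 40330 in high MMP 1). In the same order of libraries, replicates differed more than the sum did in *Fosb* (4855, 601, 389 and 5063), *Fos* (2419, 521, 326 and 2357) and *Atf3* (1934, 490, 377 and 1515). *Btg2* (0.84), *Egr1* (0.52) and *Klf6* (0.39) had the largest log2 differences of high minus low MMP, none of which passed in limma (adjusted p 0.47 or above). *Btg2* passed in edgeR with the replicate block (adjusted p 0.013) and not in DESeq2 (adjusted p 0.425). The part of these genes in the level of the members was not tested.

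Genes whose pattern over the 4 libraries lay closest to the mean pattern of the 6 heavy-strand mRNAs were sought among 9989 genes outside the mitochondrial genome with a mean of at least 100. Likeness was the Euclidean distance between log2 values centred on each gene's mean. *Gabbr1* was nearest (distance 0.036), with 280 normalized reads in high MMP 1, 473 in high MMP 2, 454 in low MMP 1 and 482 in low MMP 2. *Fam193b* (0.055), *Matn2* (0.075), *Fzd1* (0.077) and *Itga5* (0.084) followed. For scale, the heavy-strand mRNAs themselves lay at 0.068 to 0.129 from their mean, *mt-Rnr2* at 0.26, *mt-Rnr1* at 0.45 and *mt-Nd6* at 0.48. Over 4 libraries such likeness is a description. The nearest nuclear genes, picked from 9989, came as close to that mean as the mRNAs that make it up.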

How the data were processed

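RNA was measured in 4 samples, grouped and numbered by their titles. The authors aligned reads with STAR to GRCm38 (mm10), counted them per gene with HTSeq, scaled every library by its total, and filtered out genes seen in fewer than 2 of the samples. Versions, annotation release and the treatment of strand and of reads with several matches are not given in the sources used here. The deposited values are therefore a normalized signal per gene. All values were whole multiples of 1 step per library (100% within 0.01 read or a relative 1e-05), which recovered the reads. Identifiers were matched to GENCODE M21 (19993 of 20197), which also gave lengths and sequences. The study counts its samples of this comparison as independent experiments or tumors, while the labels do not tie sample numbers to cultures or sorting days.

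log2(value + 1) was tested with limma 3.58.1 in R 4.3.3 (eBayes with a trend, Benjamini-Hochberg over all 20197 genes, two-sided, threshold 0.05); differences on this scale understate changes of low genes. Shares and ratios used exact permutation tests (scipy 1.17.1). Alternatives were pseudocounts of 0.1 and 10, a mean of at least 10, other scalings, no trend, edgeR 4.0.16 and DESeq2 1.42.0 on the recovered reads, the replicate block and leaving out each library. On simulated data for this comparison, limma recovered 15% of 2-fold and 70% of 4-fold changes over 20197 genes, DESeq2 93% and 100% with 7 false calls, and edgeR, over 19980 genes, 98% and 100% with 0. The simulation gave all genes a single fixed dispersion and changed only genes above a minimum mean count. Its spread was not matched to these libraries, so recovery in the real data may be lower. Members and lists were chosen with earlier results of these data known. The genes named are the members, the other mitochondrial mRNAs, the 2 most abundant tRNAs, from each list up to 3 with the largest difference (8 for mitochondrial expression, beside *Polrmt*, *Tfam*, *Tfb2m*, *Lrpprc* and *Slirp*) that average 10 or more, and the 5 genes of nearest pattern. Further markers, stress genes and nuclear copies are named for their level, their spread between replicates or their shared sequence. Shared sequence was sought in annotated transcripts only.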

Additional observations from a re-analysis of the deposited data

How the results depend on the processing

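Of 153 alternatives for single members, 147 kept the direction and stayed on the same side of the threshold. Leaving out high MMP 1 turned 5 of them positive. Over the 4 libraries left out in turn, the log2 difference ran from -0.69 to 0.078 for *mt-Nd2*, -0.81 to 0.028 for *mt-Nd4*, -0.65 to 0.15 for *mt-Nd5*, -0.80 to 0.015 for *mt-Cytb* and -0.65 to 0.33 for *mt-Rnr2*, with the highest value each time without high MMP 1. Leaving out that library also turned the mRNA share (to 0.0137 percentage points), the rRNA share (to 0.0234) and the light-to-heavy ratio (to -0.030). The mRNA share difference ran from -0.87 to 0.0137, the rRNA share from -0.0444 to 0.0234, the light-to-heavy ratio from -0.030 to 0.54 and the rRNA-to-mRNA ratio from 0.12 to 0.24, while limma called 0 genes each time. Of the 4 shares and ratios, none turned under the alternatives that kept all libraries. Same-numbered libraries deviated in opposite directions (r = -0.42 over 12902 genes), so the numbers were not taken to pair the samples. The replicate block gave 0 calls in limma, which with the block recovered 0% of simulated 2-fold and 4-fold changes and so says nothing here. In edgeR the block gave 106 calls, with no member among them, and on the simulated data it made 8 false calls. It left the share differences at -0.43 and -0.01 and the log2 ratios at 0.26 and 0.18. DESeq2 called 118 genes and no member. With crossed numbers as the block, chosen after seeing the data, limma called 0 genes and edgeR 733, among them *mt-Rnr1* (-0.36, adjusted p 0.047). The cause of these differences between tools was not tested. limma called 0 genes but had 2011 with an unadjusted p under 0.05, and edgeR without a block 0 and 1423. The least abundant member, *mt-Nd6*, had 1184 reads or more in each library.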

Other observations

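Histone mRNAs differed between the libraries more than the mitochondrial transcripts did. *Hist1h1c*, a linker histone, had 144 normalized reads in high MMP 1, 27.6 in high MMP 2, 172 in low MMP 1 and 246 in low MMP 2. *Hist1h2bc* had 33.3, 8.37, 56.7 and 70.8, and *Hist1h4i* 52.3, 20.9, 49.7 and 62.0. The lowest library for all of them was high MMP 2, not high MMP 1, and the log2 differences of high minus low MMP were -1.68, -1.84 and -0.73 (limma, adjusted p 0.51 or above). In edgeR with the replicate block, *Hist1h1c* (adjusted p 4.7e-06) and *Hist1h2bc* (adjusted p 0.0011) passed, and *Hist1h4i* did not. That block uses sample numbers that were not taken to pair the samples. DESeq2 called neither *Hist1h1c* (adjusted p 0.99986) nor *Hist1h2bc* (adjusted p 0.257), and edgeR without the block called 0 genes. In high MMP 2 they had 33 and 10 reads before scaling. As background, mRNAs of replication histones end without a poly(A) tail, while some histone genes also give tailed forms. The share of tailed forms was not tested.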
